A study of Caenorhabditis elegans with 6 samples.

Results

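The genes described here build the epidermal hemidesmosomes of Caenorhabditis elegans, also called fibrous organelles, which tie the body wall muscles through the thin epidermis to the cuticle. They were taken as every probe set of the array whose single gene symbol in the array's gene table was 1 of 10 listed symbols. This gave 22 of the 22548 probe sets tested, for 9 of the 10 symbols, among 17118 genes named by a probe set of their own. ifa-2 had no probe set under that name, and it is another name of mua-6, which had 1. The rule that picks their probe sets reads gene symbols and no measured value, although the genes were proposed with earlier results of these data known.

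Muscle in the worm does not touch the cuticle, so the pull of each contraction passes through the epidermis. A fibrous organelle is a pair of membrane plaques, one facing the muscle and one facing the cuticle, joined by a bundle of intermediate filaments that spans the cell. Receptors sit in each plaque, plakin-like linkers bind them to the filaments, and loss of a component detaches muscle or cuticle and often paralyses the animal. At each molt the old cuticle separates from the epidermis and a new one is laid down beneath it, so that the outer attachments must pass to the new cuticle.

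The larvae were wild-type N2, variety Bristol, grown at 20 °C on bacteria after release from starvation arrest at hatching. The L3-lethargus group was picked at 37 hours after feeding by quiescence of movement and feeding, and the L3 group at 32 hours by active behaviour. Each group had 3 arrays, and each array held RNA from 1 pool of 200 whole animals collected as 10 tubes of 20. Age, molting phase and behaviour differ together between the groups and cannot be told apart. The RNA comes from all tissues, so a changed share of epidermal RNA and a changed level within epidermal cells cannot be told apart either. Nothing in the labels says whether pools were grown separately, and p-values measure the spread between pools.

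Values are log2 expression levels made by the authors with RMA, and a change is the L3-lethargus mean minus the L3 mean. limma tested every probe set at once, with Benjamini-Hochberg adjustment over all 22548, and a call means an adjusted p no higher than 0.05. Array medians lay between 7.09 and 7.19. L3 replicate 3 stood apart, with a score of 0.82 on the first principal component (50.1% of variance), between the L3-lethargus arrays at 19.5 to 39.1 and L3 replicates 1 and 2 at -47.7 and -40.9. The table has no detection calls, so the Bacillus control probe sets, for which the worm has no transcript, serve as a guide to background, and they ranged from 2.42 to 5.73. Of the 22 attachment probe sets, 18 lay above the highest control of the same array on all 6 arrays and 2 lay below it on all 6. Those 2 are 1 of the pat-12 probe sets and that of ifa-3.

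No attachment gene was called between L3-lethargus and L3 larvae, in either direction. limma called 0 of the 22 probe sets, where the background over all probe sets was 0.967% (0.754% higher and 0.213% lower). At an unadjusted p under 0.05 there were 5 of 22, 1 higher and 4 lower, against a background of 10.6% (5.44% higher and 5.11% lower). Of these lower probe sets, that of ifa-3 lay above the highest control of the same array on 0 of 6 arrays. The dimmest let-805 probe set, also lower, did so on 1 of 6. In 4 of 22 the arrays of the groups did not overlap, against a background of 14.4% (7.81% higher and 6.57% lower). Those 4 probe sets belong to mua-3, mua-6 and ifa-3, which were lower on all L3-lethargus arrays, and to vab-10, which was higher on all of them. Of all 22 changes, 10 were positive and 12 negative, with a median of -0.0074, against 0.016 over all probe sets. The changes ran from -0.77 to 0.42, so every estimate on all 6 arrays was under 2-fold. The 95% confidence interval of the change stayed within 2-fold either way for 19 of the 22. The exceptions were the brighter mua-3 probe set, the dimmer mua-3 probe set and the dimmest let-805 probe set.

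**Figure D1:**
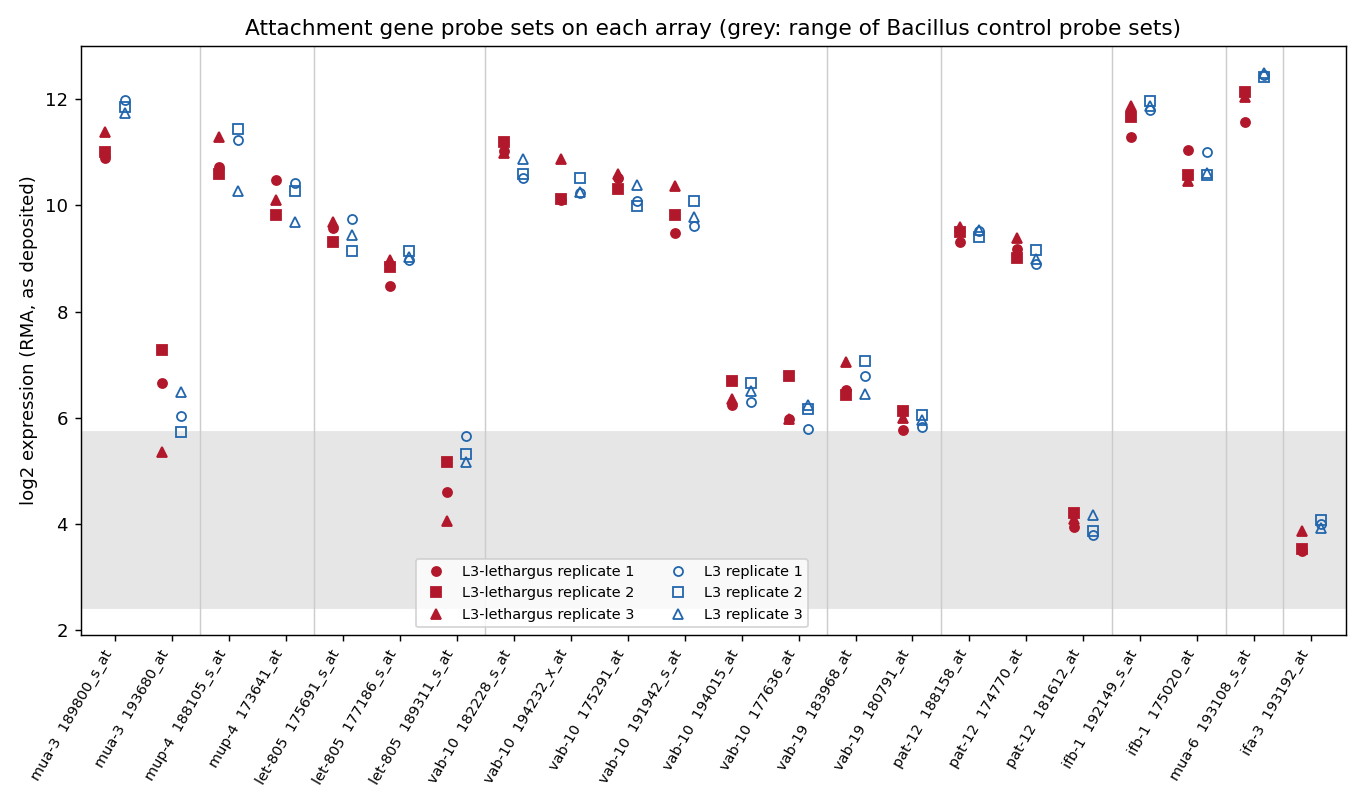
Log2 expression (y axis, RMA values as deposited) of the 22 attachment gene probe sets (x axis, grouped by gene), with filled red symbols for the 3 L3-lethargus arrays and open blue symbols for the 3 L3 arrays. The grey band is the range of the Bacillus control probe sets, 2.42 to 5.73. The ifa-3 probe set, a pat-12 probe set and the dimmest let-805 probe set lie inside it on all arrays.

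**Figure D2:**
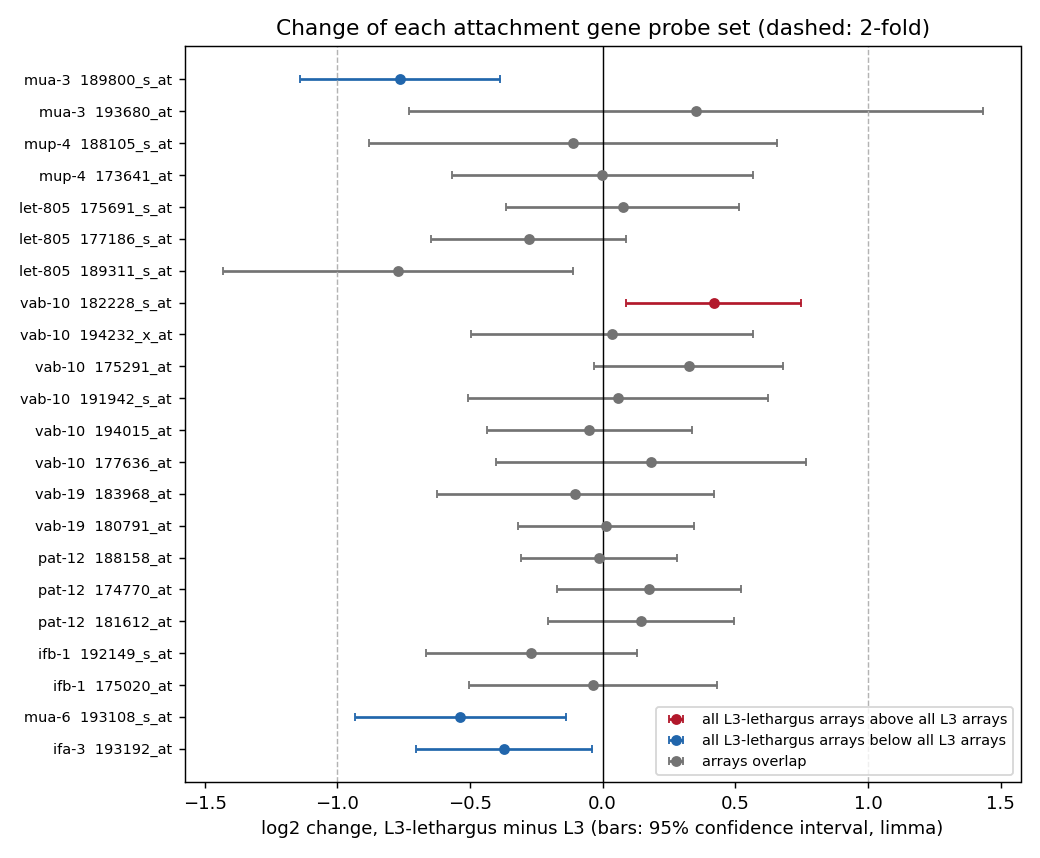
Log2 change, L3-lethargus minus L3 (x axis), of each attachment gene probe set with its 95% confidence interval from limma as a bar. Colour marks the 4 probe sets whose arrays did not overlap between groups, of which vab-10 182228_s_at is higher and those of mua-3, mua-6 and ifa-3 are lower, and dashed lines mark 2-fold.

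The cuticle-facing receptor gene mua-3 came closest to a call. MUA-3 is a large transmembrane protein with many EGF-like repeats, and it is needed to keep larval muscle attached as the animal grows. Its brighter probe set, 189800_s_at, had log2 levels of 10.89, 11.01 and 11.38 in L3-lethargus larvae, against 11.97, 11.86 and 11.74 in L3 larvae. All L3-lethargus arrays were below all L3 arrays, with a gap of 0.36 between the nearest arrays. The means were 11.09 ± 0.26 in L3-lethargus and 11.86 ± 0.12 in L3 (SD, n = 3 each). The change was -0.76 (SE 0.16, 95% interval -1.14 to -0.39), or 1.70-fold lower, and its adjusted p from limma was 0.0997. It was called lower with array weights (change -0.81, adjusted p 0.0402) and with a variance trend and robust fitting (adjusted p 0.0468). It was not called with any array left out, where adjusted p ran from 0.0515 without L3 replicate 3 to 0.370 without L3 replicate 1.

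The second mua-3 probe set, 193680_at, was dimmer, and its groups overlapped. It read 6.66, 7.28 and 5.36 in L3-lethargus, against 6.04, 5.72 and 6.48 in L3, so the L3-lethargus arrays lay on both sides of the L3 arrays. Its change was 0.35 (SE 0.46, 95% interval -0.73 to 1.43, adjusted p 0.926). It had the widest interval of the 22, and 4 of its 6 values lay above the highest control of their own array. The brighter reading of mua-3 minus the dimmer averaged 4.66 ± 1.21 in L3-lethargus and 5.77 ± 0.46 in L3 (SD, n = 3 each). The groups overlapped in this difference, which changed by -1.12 (exact permutation test, two-sided p = 0.3). With 3 against 3 arrays this test cannot go below 0.1, so it did not settle whether the probe sets changed differently. With both probe sets averaged, the change of mua-3 was -0.21 (adjusted p 0.871), so the low adjusted p of this gene rests on the brighter probe set.

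mup-4, the other cuticle-facing receptor gene, had overlapping groups on both of its probe sets. MUP-4 resembles MUA-3 in its EGF-like repeats and is needed from embryonic elongation onward. Its probe set 188105_s_at had 10.72, 10.59 and 11.28 in L3-lethargus, against 11.23, 11.44 and 10.26 in L3. Its probe set 173641_at had 10.47, 9.82 and 10.10 in L3-lethargus, against 10.43, 10.28 and 9.68 in L3. On both probe sets the lowest array of all 6 was L3 replicate 3, which lay 1.07 and 0.67 below the mean of the other L3 arrays. The changes were -0.11 (95% interval -0.88 to 0.66) and -0.00058 (95% interval -0.57 to 0.57), with adjusted p of 0.977 and 1.000 from limma. Without L3 replicate 3 the changes were -0.47 and -0.22, still uncalled. Whether mua-3 and mup-4 differ in their change was not tested.

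The muscle-facing receptor gene let-805 had estimated changes of 0.076 and -0.28 on its brighter probe sets, neither called. LET-805, myotactin, is a transmembrane protein with fibronectin type III repeats in the basal plaque. Probe set 175691_s_at had 9.57, 9.30 and 9.69 in L3-lethargus, against 9.75, 9.15 and 9.44 in L3, a change of 0.076 (SE 0.19, adjusted p 0.972). Probe set 177186_s_at had 8.49, 8.84 and 8.97 in L3-lethargus, against 8.96, 9.15 and 9.02 in L3, a change of -0.28 (SE 0.16, adjusted p 0.663). In both the groups overlapped, the second by L3-lethargus replicate 3 and L3 replicate 1, and without L3-lethargus replicate 1 the second change was -0.14.

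The dimmest let-805 probe set, 189311_s_at, had the most negative change of the 22. It read 4.60, 5.17 and 4.06 in L3-lethargus, against 5.66, 5.32 and 5.17 in L3, a change of -0.77 (SE 0.28, 95% interval -1.43 to -0.11, adjusted p 0.367). With an array left out it ran from -1.05, over 2-fold, without L3-lethargus replicate 2 to -0.50 without L3-lethargus replicate 3. Only 1 of these 6 values, that of L3 replicate 1, lay above the highest control of its own array, and the nearest arrays of the groups overlapped by less than the second decimal. Set against the brighter let-805 probe sets, its reading shifted by -0.67 (exact permutation test, two-sided p = 0.2). The average of all let-805 probe sets changed by -0.33 (adjusted p 0.412).

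vab-10, which encodes the linker of the plaques, supplied 6 probe sets and the sole upward shift without overlap. The gene makes plakin-like and microtubule-binding spectraplakin isoforms, of which the plakin-like kind belongs to the fibrous organelle. Which isoform each probe set reads is not given in the sources used here. Probe set 182228_s_at had 11.03, 11.20 and 10.99 in L3-lethargus, against 10.52, 10.58 and 10.86 in L3. All L3-lethargus arrays were above all L3 arrays, with a gap of 0.13. The means were 11.07 ± 0.11 in L3-lethargus and 10.66 ± 0.18 in L3 (SD, n = 3 each), a change of 0.42 (SE 0.14, 95% interval 0.087 to 0.75), or 1.34-fold higher, with an adjusted p of 0.318 from limma. Of the L3 arrays the highest was replicate 3, and without it the change was 0.52 (adjusted p 0.119).

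The next largest shift of vab-10 was on 175291_at, with 10.51, 10.31 and 10.59 in L3-lethargus against 10.08, 9.99 and 10.38 in L3. Here L3 replicate 3 exceeded L3-lethargus replicate 2, and the change was 0.32 (SE 0.15, adjusted p 0.553). The other 4 vab-10 probe sets had changes between -0.050 and 0.18 with overlapping groups. On 2 of them, 194232_x_at and 191942_s_at, L3-lethargus replicate 3 was the highest of all 6 arrays, at 10.88 and 10.37, while the other L3-lethargus arrays lay at 10.10, 10.12, 9.48 and 9.81. Setting each vab-10 probe set against the average of the other 5 gave shifts from -0.25 to 0.31, with exact two-sided permutation p-values of 0.2 to 0.9. The shift of 0.31 was that of 182228_s_at (exact permutation p = 0.2), so its reading was not shown to differ from the rest of the gene. Averaged over all 6 probe sets, vab-10 changed by 0.16 (adjusted p 0.838).

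The remaining plaque genes, vab-19 and pat-12, had estimated changes between -0.10 and 0.17, none called. VAB-19 is an ankyrin repeat protein related to the vertebrate Kank proteins, needed for the spacing of the attachments, and PAT-12 is a component of the fibrous organelle needed for attachment. vab-19 read 6.52, 6.42 and 7.05 in L3-lethargus against 6.78, 7.07 and 6.45 in L3 on 183968_at, a change of -0.10 (95% interval -0.63 to 0.42). On 180791_at, nearer to background, its change was 0.013 (95% interval -0.32 to 0.34).

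pat-12 was the most even of these genes on its brightest probe set. On 188158_at it read 9.32, 9.51 and 9.59 in L3-lethargus, against 9.51, 9.41 and 9.53 in L3. The change was -0.014 (SE 0.13, 95% interval -0.31 to 0.28), the narrowest interval of the 22. The second probe set, 174770_at, changed by 0.17 (95% interval -0.17 to 0.52), and the third, 181612_at, lay in the range of the controls on all arrays.

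Among the intermediate filament genes, mua-6 was lower on every L3-lethargus array. The filaments of the organelle are built from IFB-1 paired with an IFA protein, and MUA-6, also named IFA-2, is the partner needed after hatching. Its probe set 193108_s_at, the brightest of the 22, had 11.57, 12.14 and 12.04 in L3-lethargus, against 12.45, 12.42 and 12.50 in L3. The L3 arrays lay close together, while L3-lethargus replicate 1 lay well below the other L3-lethargus arrays. The means were 11.92 ± 0.30 in L3-lethargus and 12.45 ± 0.041 in L3 (SD, n = 3 each), a change of -0.54 (SE 0.17, 95% interval -0.93 to -0.14), or 1.45-fold lower, with an adjusted p of 0.283. Without L3-lethargus replicate 1 the change was -0.36 and the adjusted p was 0.463.

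The shared filament subunit gene ifb-1 had changes of -0.27 and -0.036 on its 2 probe sets. On 192149_s_at it read 11.29, 11.66 and 11.87 in L3-lethargus, against 11.79, 11.97 and 11.86 in L3 (adjusted p 0.728). As for mua-6, the lowest array there was L3-lethargus replicate 1, and without it the change was -0.11. With both probe sets averaged, ifb-1 changed by -0.15 (adjusted p 0.773). On 175020_at that same array was the highest, with 11.04, 10.58 and 10.45 in L3-lethargus against 11.004, 10.56 and 10.61 in L3 (adjusted p 0.990). The difference between the ifb-1 probe sets did not separate the groups (exact permutation test, two-sided p = 0.7).

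ifa-3, which lies next to mua-6 in the genome with 0 protein-coding genes starting between them, encodes the IFA partner known from the embryonic epidermis. It read 3.49, 3.53 and 3.86 in L3-lethargus, against 4.01, 4.07 and 3.93 in L3, a change of -0.37 (SE 0.14, adjusted p 0.392). The groups did not overlap, but every value was as low as the Bacillus controls, so these readings give no level of ifa-3.

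**Figure D3:**
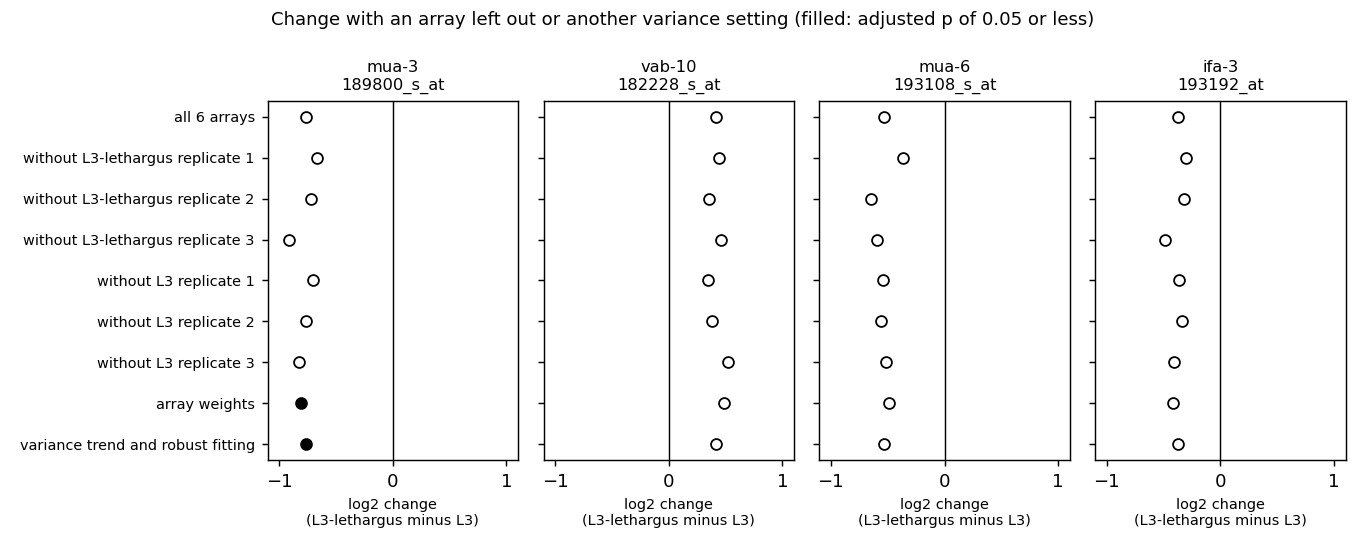
Log2 change, L3-lethargus minus L3 (x axis), of the 4 probe sets whose groups did not overlap, with all 6 arrays, with each array left out and under other variance settings (y axis). Filled points mark an adjusted p of 0.05 or less, reached by mua-3 189800_s_at with array weights and with a variance trend and robust fitting. The 4 probe sets were picked for groups without overlap, so no setting shown could move a point across 0.

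No array was highest or lowest for all attachment probe sets. L3-lethargus replicate 3 was the highest of its group for 12 of the 22 probe sets, and L3-lethargus replicate 1 was the lowest for 12. L3 replicate 3, which stood apart over all probe sets, was below the mean of the other L3 arrays in 13 of 22, with a median difference of -0.025. Without it 0 of the 22 were called, where the background had become 5.04%. Comparing probe sets within each of the 7 genes that have several gave 16 comparisons, and 0 reached the smallest possible exact p of 0.1 (adjusted p-values of 0.8 to 0.9).

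Genes that work beside the attachments were also uncalled. Of 122 genes on 7 lists, 117 were measured, each by its brightest probe set. Of these, 0 were called higher and 0 lower, where the background over 17118 genes was 1.03% (0.783% higher and 0.251% lower). At an unadjusted p under 0.05 there were 6 higher and 6 lower of the 117, against a background over genes of 10.8% (5.74% higher and 5.06% lower). On the same basis the 9 attachment genes had a median change of -0.11, with 2 positive and 7 negative. Among the 7 is ifa-3, which read at background. Over all 17118 genes the median was 0.020, with 9312 positive and 7806 negative.

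Other intermediate filament genes were listed together with ifo-1 and sma-5, which do not encode filament proteins. Most genes of this list are known from the intestine. Changes were positive in 10 of the 11, including ifo-1 and sma-5, with a median of 0.24. Over all 17118 genes, 9312 changes were positive. The smallest p was that of ifo-1, an organizer of intestinal filaments, with 11.25, 11.02 and 11.57 in L3-lethargus against 10.40, 10.90 and 10.85 in L3, a change of 0.56 (SE 0.20, adjusted p 0.352). At an unadjusted p under 0.05 there were 3 of 11, ifo-1 among them, all higher, against a background over genes of 5.74% higher. The 5 intestine markers had a median change of 0.083 and 0 calls, with median levels of 9.65 to 9.97 in L3-lethargus and 9.58 to 9.82 in L3. The 4 pharyngeal muscle markers all had positive changes, with a median of 0.34, 2 of them at an unadjusted p under 0.05 and 0 called, and median levels of 9.64 to 9.83 in L3-lethargus and 9.14 to 9.41 in L3. The part of either tissue in the filament values was not tested.

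Basement membrane genes, whose products lie between epidermis and muscle, had a median change of 0.044 over 21 genes. fbl-1, which encodes fibulin, had 9.42, 9.20 and 9.88 in L3-lethargus against 8.43, 8.66 and 8.84 in L3, a change of 0.85 (SE 0.20, adjusted p 0.139). Its arrays did not overlap, and its adjusted p was 0.0586 to 0.466 with an array left out. With all fbl-1 probe sets averaged the change was 0.53 (adjusted p 0.354).

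Muscle attachment complex genes, which anchor the sarcomere to that membrane, had changes from -0.17 to 0.33 over 20 genes, with 0 at an unadjusted p under 0.05. The smallest p was that of kin-32, a focal adhesion kinase, with a change of 0.33 (adjusted p 0.705), or 0.15 without L3-lethargus replicate 3. Apical junction genes had changes from -0.34 to 0.35 over 19 genes, likewise with 0 at an unadjusted p under 0.05, and the smallest p was that of vab-9, a claudin-like junction gene (0.35, adjusted p 0.619, or 0.54 without L3-lethargus replicate 1). Spectrin and cortical cytoskeleton genes had a median of 0.021 over 18 genes. The nonmuscle myosin gene nmy-1 had the smallest p there, with a change of -0.54 (adjusted p 0.588), or -0.32 without L3-lethargus replicate 1.

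Genes listed as regulators of attachment remodelling had a median of -0.012 over 16 genes. The smallest p was that of ptc-3, a patched family gene, with 9.21, 9.37 and 10.54 in L3-lethargus against 11.63, 11.62 and 10.42 in L3. Whether ptc-3 acts in attachment remodelling was not tested. The groups overlapped through L3-lethargus replicate 3 and L3 replicate 3, and the change was -1.52 (SE 0.44, adjusted p 0.231). Without L3 replicate 3 it was called lower, at -1.92 (adjusted p 0.0255).

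Genes listed as apical matrix partners had the most negative median of the lists, -0.55 over 12 genes, of which 10 had a negative change. Whether their products lie at the outer plaque was not tested. Over all 17118 genes, 7806 changes were negative. At an unadjusted p under 0.05 there were 5 of 12, all lower, against a background over genes of 5.06% lower. egg-6, a leucine-rich repeat gene of the matrix, had the smallest p, with 7.93, 8.21 and 8.13 in L3-lethargus against 8.77, 8.60 and 8.31 in L3, a change of -0.47 (SE 0.16, adjusted p 0.317 from limma). Its adjusted p was 0.0992 to 0.806 with an array left out. With all egg-6 probe sets averaged the change was -0.39 (adjusted p 0.540).

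The epidermis markers changed by -1.29 to 0.45, against -0.76 to 0.42 for the 9 attachment genes by their brightest probe sets. Of 8 epidermis markers 4 had positive and 4 negative changes, with a median of -0.30, and their median level ran from 9.33 to 9.47 in L3-lethargus and from 9.45 to 9.95 in L3. The sole call was the collagen gene rol-6, which fell by 1.05 on the log2 scale (adjusted p 0.0488 from limma), a call that ended without L3 replicate 1 or 2 or any 1 of the L3-lethargus arrays (adjusted p 0.111 to 0.234). The 7 body wall muscle markers had changes from -0.049 to 0.14, and their median level ran from 11.99 to 12.18 in L3-lethargus and from 11.90 to 11.95 in L3. The part of the epidermal markers' spread in the values of mua-3 and mua-6 was not tested.

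**Figure D4:**
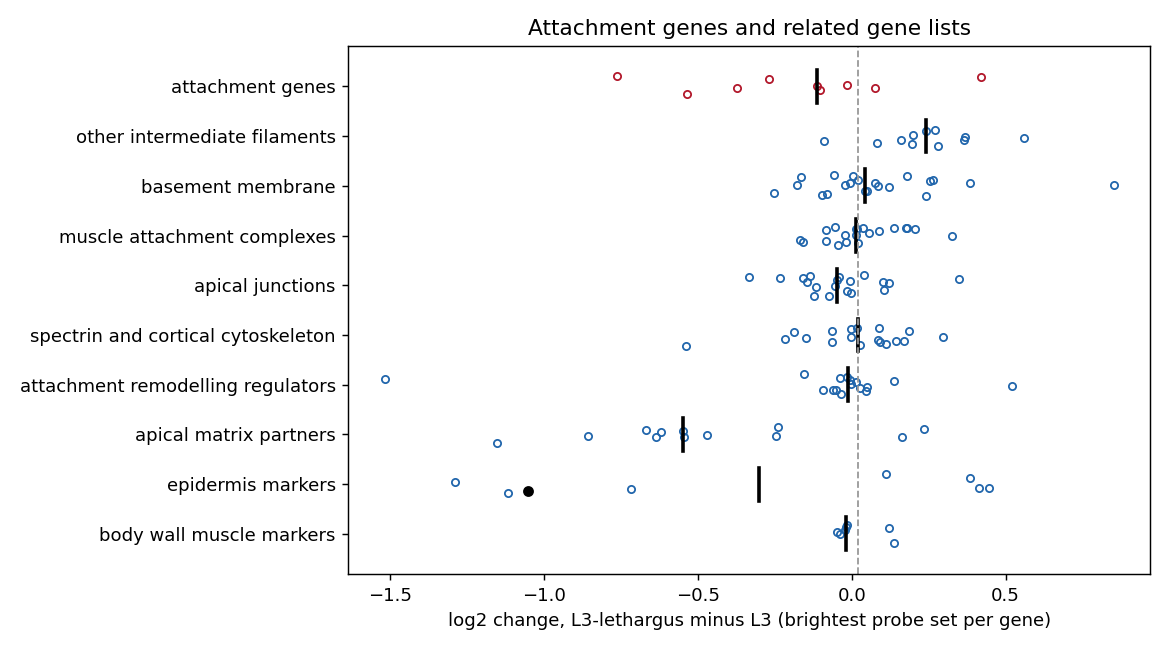
Log2 change, L3-lethargus minus L3 (x axis), of the attachment genes, the 7 related lists and the epidermis and body wall muscle markers (y axis), 1 point per gene by its brightest probe set. Thick bars are list medians, from -0.55 for apical matrix partners to 0.24 for other intermediate filaments, the dashed line is the median of all genes, and the filled point is rol-6.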

How the data were processed

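The deposited table holds log2 expression values of 22625 probe sets of the Affymetrix C. elegans Genome Array, made by the authors with RMA per the submitters' processing notes (version and background settings not given in the sources used here). Per the labels' protocols, the RNA was pre-amplified (Nugen Ovation) ahead of labelling, so levels of different probe sets are not compared as transcript numbers. The 77 control probe sets were left out. Probe sets were named only where the array's gene table gave 1 gene (20766), with several genes for 887 and none for 895, and all 9 attachment genes matched RefSeq (WBcel235) by gene identifier. Of the 22 attachment probe sets, 10 end in _s_at or _x_at, which marks probes that can match related transcripts.

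The comparison of L3-lethargus against L3 used limma 3.58.1 (R 4.3.3) on the values as deposited, with group as its single term, two-sided. R/maanova, named in the design text, was not run here. Permutation tests used scipy 1.17.1. The fit was tested on simulated data with log2 changes of -4, -2, 2 and 4. It called 50, 42, 42 and 50 of 50 changed probe sets, with 10 false calls. All attachment changes were smaller in size, so the simulation does not show how often such changes would be called. The number of arrays limits the precision. Samples sharing a replicate number were not paired in the main fit, and the values cannot show whether they should be. The attachment genes, lists and rule for named genes (every attachment probe set, and of each list up to 4 called genes or the one with the smallest p, plus the called marker) were chosen with earlier results of these data known. Alternatives were other normalizations, a filter on dim probe sets, variance settings, array weights, a replicate block, arrays left out and averaged probe sets.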

Additional observations from a re-analysis of the deposited data

How the results depend on the processing

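Over 13 alternatives, 232 of 269 values of attachment probe sets kept their direction and stayed uncalled, 2 were called and 35 turned direction. The calls were those of mua-3 189800_s_at, which made the count of attachment probe sets called lower 1 with array weights and 1 with a variance trend and robust fitting, against 0, and 0 were called higher under each alternative. A total of 10 probe sets kept their direction throughout, among them those of mua-6, ifa-3, mua-3 189800_s_at and vab-10 182228_s_at. The groups of these named probe sets did not overlap, so leaving out an array, array weights or variance settings could not turn their direction. The probe sets that turned direction had changes of at most 0.35 in size in the main fit. mup-4 173641_at became 0.0056 with a second quantile normalization, and vab-19 180791_at became -0.00079 with a common median. With array weights vab-10 194232_x_at became -0.069, vab-10 191942_s_at -0.016 and pat-12 188158_at 0.0046. With all probe sets of a gene averaged, let-805 became -0.33 and pat-12 became 0.10.

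With an array left out, changes ran from -0.073 to 0.89 for mua-3 193680_at, -0.47 to 0.12 for mup-4 188105_s_at, -0.22 to 0.15 for mup-4 173641_at and -0.073 to 0.23 for let-805 175691_s_at. Those of vab-10 ran from -0.22 to 0.17 on 194232_x_at, -0.18 to 0.26 on 191942_s_at, -0.18 to 0.044 on 194015_at and -0.088 to 0.32 on 177636_at. Those of vab-19 ran from -0.30 to 0.049 on 183968_at and -0.069 to 0.11 on 180791_at, those of pat-12 188158_at from -0.073 to 0.062 and those of ifb-1 175020_at from -0.21 to 0.10.

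Over all probe sets, 170 were called higher and 48 lower. With an array left out the counts were 75 to 573 higher and 0 to 563 lower, the highest of both without L3 replicate 3. They were 262 and 231 with array weights and 56 and 3 with the replicate number as a block, and 77 were lower with a variance trend and robust fitting. Among list genes, 0 to 1 were called lower with an array left out. Deviations from the group means correlated between the groups at 0.26, -0.24 and -0.29 for replicates 1, 2 and 3. Only replicate 1 of L3-lethargus correlated best with its own number. These few values cannot show whether the replicate numbers pair the arrays. With the replicate number as a block 0 attachment probe sets were called, and rol-6 had an adjusted p of 0.186 from limma. Signal over background limits ifa-3, pat-12 181612_at and let-805 189311_s_at, and the dim filter kept 20 of the 22 probe sets. The causes of these shifts were not tested.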
